A study of Homo sapiens with 16 samples.

Results

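MHC class I antigen presentation was followed through 9 genes, out of 58051 in the count table, across the groups of the study. They are HLA-B, HLA-C, HLA-E, B2M, TAP1, TAP2, TAPBP, ERAP1 and ERAP2, chosen by name for their role in the pathway, with earlier results of these data known, and all 9 passed the filter on low counts in every comparison. All libraries came from LNCaP cells, a human prostate cancer line, at passage 20. In the knockdown experiment the cells received Allstar control siRNA (siCtrl) or siRNA against XBP1 (siXBP1) for 2 days. In the inhibitor experiment they received DMSO (Vehicle) or 10 µM MKC8866, an inhibitor of the RNase of the ER stress sensor IRE1α, for 24 h. The cells of every group, controls included, were then exposed to 30 nM thapsigargin for 3 h, which blocks the ER calcium pump and causes ER stress. Each group had 4 libraries, all from 1 cell line, and no group without thapsigargin was analysed here. The study calls the samples independent without saying whether each was a separate culture, so the p-values measure the spread between these libraries, which may be technical.

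MHC class I molecules carry peptides from proteins made inside the cell to its surface, where cytotoxic T cells and natural killer cells read them. Peptides cut by the proteasome are pumped into the ER by the TAP transporter, a pair of the subunits TAP1 and TAP2, and are trimmed there by the aminopeptidases ERAP1 and ERAP2. Tapasin, the product of TAPBP, holds empty class I molecules beside the transporter, and each heavy chain (HLA-B, HLA-C or HLA-E) leaves the ER together with β2-microglobulin, the product of B2M. The trimming of peptides and their loading onto class I molecules take place in the ER, the organelle whose folding capacity the IRE1α-XBP1 pathway serves.

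Between 28713607 and 34509488 fragments were counted per library (median 30743136). The level of total XBP1 mRNA, the target of the siRNA, was checked first. It was 389, 422, 367 and 360 CPM (the count scaled to the TMM-normalized library size) in the siCtrl libraries and 51.2, 54.2, 54.4 and 53.3 CPM in the siXBP1 libraries. The log2 fold change was -2.85, with a standard error of 0.05 and an adjusted p of 2.92e-20 in edgeR's quasi-likelihood test. Every siXBP1 library lay far below every siCtrl library, as the labels state. With MKC8866, which blocks the splicing of XBP1 mRNA, total XBP1 mRNA rose by a log2 fold change of 0.20 (adjusted p = 0.00493, edgeR). These counts hold the spliced and the unspliced form of XBP1 mRNA together. The prostate luminal markers KLK3, KLK2, TMPRSS2 and FOLH1 were above 10 counts in every library. Of 7 leukocyte markers, 6 had at most 4 counts in any library, PTPRC (the pan-leukocyte antigen CD45) among them, so the class I counts were measured with those white blood cell markers near 0. The remaining leukocyte marker, ITGAM, had 19 to 37 counts. Of 5 stromal and endothelial markers, 3 had at most 2 counts in any library, while COL1A1 had 788 to 1115 and VWF 215 to 330. In bulk RNA, fewer cells of a type and less RNA per cell cannot be told apart, and this holds for the luminal markers and for every gene described here.

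Levels between genes were compared as FPKM (CPM divided by the exonic length, as the table gives it, in kilobases). The genes spanned a wide range in siCtrl cells. By FPKM, HLA-C (63.8 ± 3.26 FPKM, SD, n = 4) and B2M (59.3 ± 4.53) were the highest, and TAPBP followed at 32.2 ± 2.56. HLA-C and B2M were within their spread of each other only by this measure. The FPKM divide by all annotated exonic bases, 6089 for B2M and 2507 for HLA-C, whichever transcripts the cells use. In CPM, B2M was at 361 and HLA-C at 160 in siCtrl cells. TAP1 was at 8.44 ± 0.472 FPKM, and HLA-B (7.08 ± 0.470) and HLA-E (7.02 ± 0.235) did not differ beyond their spread. ERAP1 was at 5.75 ± 0.130 FPKM, TAP2 at 3.07 ± 0.113 and ERAP2 at 0.986 ± 0.0668. By FPKM, the pair of transporter subunits was thus unequal in mRNA in the control libraries, and so was the pair of trimming enzymes. Fragments in exons shared with another gene were not counted, which covers 32.3% of the exonic bases of TAP2 and 9.96% of those of TAP1. How much of the TAP1 to TAP2 difference comes from this was not tested. The plot of levels by library shows the order of the genes, which stood the same way at both ends in all groups, with HLA-C and B2M at the top and ERAP2 at the bottom.

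**Figure D1:**
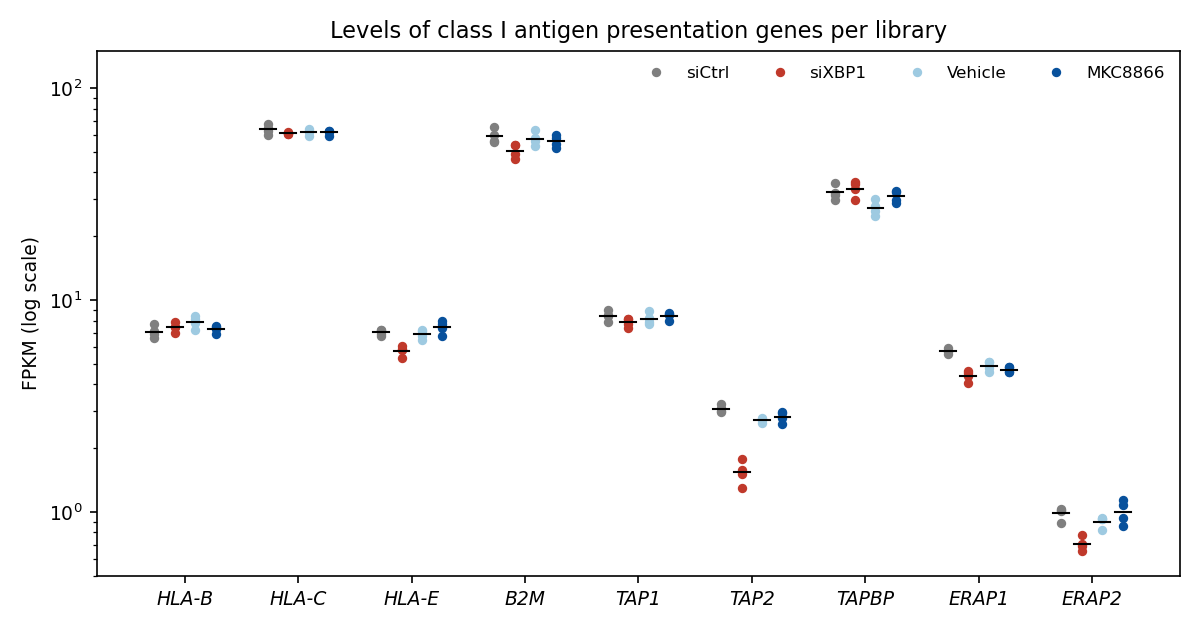
Level of each class I gene in each of the 16 libraries, in FPKM on a log axis, with a point per library coloured by group and a black line at the group mean. TAP2 in siXBP1 cells (1.53 FPKM against 3.07 in siCtrl cells) is the gene whose points move furthest between groups, while HLA-C stays between 61.1 and 63.8 FPKM in the means of all groups.

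Several of these genes share exons with a neighbour on the genome (coordinates are GRCh38, Ensembl 85). HLA-B (ENSG00000234745, chromosome 6, 31353872 to 31357188), HLA-C (ENSG00000204525, chromosome 6, 31268749 to 31272130), TAP1 (ENSG00000168394, chromosome 6, 32845209 to 32853978), TAP2 (ENSG00000204267, chromosome 6, 32821833 to 32838780) and TAPBP (ENSG00000231925, chromosome 6, 33299694 to 33314387) lie on the minus strand of the MHC. HLA-E (ENSG00000204592, chromosome 6, 30489467 to 30494205) lies there on the plus strand. ERAP1 (ENSG00000164307, chromosome 5, 96760810 to 96808100, minus strand) and ERAP2 (ENSG00000164308, chromosome 5, 96875939 to 96919716, plus strand) are neighbours, and B2M (ENSG00000166710) is on chromosome 15 from 44711477 to 44718877. Fragments that touch exons of 2 genes were not counted, on either strand. TAP2 shares the largest part, 2064 of its exonic bases (32.3%), with a readthrough gene that itself received at most 1 count, followed by HLA-B with 542 bases (17.99%) and TAP1 with 456 bases (9.96%, with the antisense gene PSMB8-AS1). ERAP1 shares 299 bases (3.76%) with CAST on the other strand, which had 4636 to 6250 counts. The bases left out are the same in every library, while the FPKM divide by the full exonic length, so the FPKM of such genes may be too low. Stretches of 150 bases in the coding transcripts were also searched for in other genes of the table, leaving out these overlapping neighbours. Outside the neighbours, no such stretch of HLA-C, HLA-E, B2M, TAP1, TAP2, TAPBP, ERAP1 or ERAP2 occurred exactly in another gene. For HLA-B, 1217 of 3499 such stretches also occurred in DHFRP2, a pseudogene that newer HLA-B transcript models run into and that had 0 to 4 counts in any library. HLA-B and HLA-C are among the most variable human genes, and counts of fragments aligned to the reference alleles may miss those of alleles that differ from it, which limits the levels of HLA-B and HLA-C as measures of their mRNA.

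The promoters were read because several of these genes have well-known control elements in common and because 5 of them fell after the knockdown. The windows of 300 bases (250 before to 50 after a start site, RefSeq, GRCh38.p14) held 8 of the 9 genes in 11 windows. HLA-E was not among them. The motif GAAA, any 2 bases, GAAA is the repeat at the core of the interferon-stimulated response element that IRF proteins bind. On either strand it matched in 6 of the 11 windows, from 6 of the 8 genes, and in 3.57% of all 35116 windows. TAP1, ERAP1 and ERAP2 each had another window without a match. The following stretches show the matches in capitals (TTTC where the match is on the other strand, overlapping matches merged), each on the strand of its gene.
TAP1, chr6:32853816-32853845, minus strand: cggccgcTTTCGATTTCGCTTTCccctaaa
TAP2, chr6:32838778-32838807, minus strand: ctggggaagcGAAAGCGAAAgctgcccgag
TAPBP, chr6:33314076-33314105, minus strand: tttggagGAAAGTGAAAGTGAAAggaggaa
B2M, chr15:44711366-44711395, plus strand: actctaaGAAAAGGAAACTGAAAacgggaa
ERAP1, chr5:96807924-96807953, minus strand: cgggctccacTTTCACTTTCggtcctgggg
ERAP2, chr5:96876460-96876489, plus strand: tcttagaacaGAAAGTGAAAgcaaaagtaa
The windows of HLA-B and HLA-C held no such match, and held CCAAT, the box that NF-Y binds, 3 and 4 times. The stretches below show the closest group of CCAAT boxes in each (ATTGG on the other strand), and both stretches end in the same letters.
HLA-B, chr6:31357224-31357279, minus strand: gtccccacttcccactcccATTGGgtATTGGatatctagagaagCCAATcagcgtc
HLA-C, chr6:31272137-31272192, minus strand: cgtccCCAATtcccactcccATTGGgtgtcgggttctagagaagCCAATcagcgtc
CCAAT also matched in windows of B2M, TAP1 and ERAP1 and in 34.6% of all windows. Of the motifs known for XBP1s, TGACGTG (1.97% of all windows) and CCAAT, any 9 bases, CCACG (0.0769%) matched in no window of the 8 genes, and CCACG (38.1%) matched in windows of HLA-B, B2M and TAP1. A match is a description of these letters, and no match says only that they are not in these windows.

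The first comparison asked how the class I genes differed between siXBP1 and siCtrl cells. Of the 9 genes, 5 fell (TAP2, ERAP2, ERAP1, HLA-E and B2M), none rose, and HLA-B, HLA-C, TAP1 and TAPBP did not pass the test. The fall was largest for TAP2, which was at 50% of its siCtrl level, and amounted to 14.4% to 28.2% for the other 4. Among all 21021 genes tested, 18.2% were called lower and 16.5% higher (adjusted p under 0.05, edgeR). These shares include genes with few counts. Among the 16620 genes with at least 10 counts in every library, 3683 were lower and 3664 higher, and the same 5 of the 9 fell. The median log2 fold change of the 9 genes was -0.23, and that of all genes tested was 0.01.

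In the transporter, the subunits moved unequally. TAP2 had 19.1, 19.01, 20.5 and 19.8 CPM in the siCtrl libraries and 10.0, 8.24, 11.4 and 9.60 CPM in the siXBP1 libraries, from 600 to 676 counts against 257 to 334. All 4 siXBP1 libraries lay below all siCtrl libraries, with a wide gap between them. TAP2 had a log2 fold change of -1.0 (standard error 0.08, 95% interval -1.17 to -0.83, adjusted p = 1.33e-09, edgeR), the 521st smallest p of all genes tested. TAP1, its partner, had 38.4, 38.78, 41.3 and 36.0 CPM against 33.9, 37.4, 37.1 and 35.3 CPM. These ranges overlapped, and its log2 fold change of -0.10 (95% interval -0.21 to 0.01, adjusted p = 0.159, edgeR) did not pass the test. The ratio of TAP1 to TAP2 FPKM followed from this, at 2.53 to 2.85 in the siCtrl libraries and 4.56 to 6.34 in the siXBP1 libraries. The ratio was chosen for display after these values had been seen and was not tested.

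**Figure D2:**
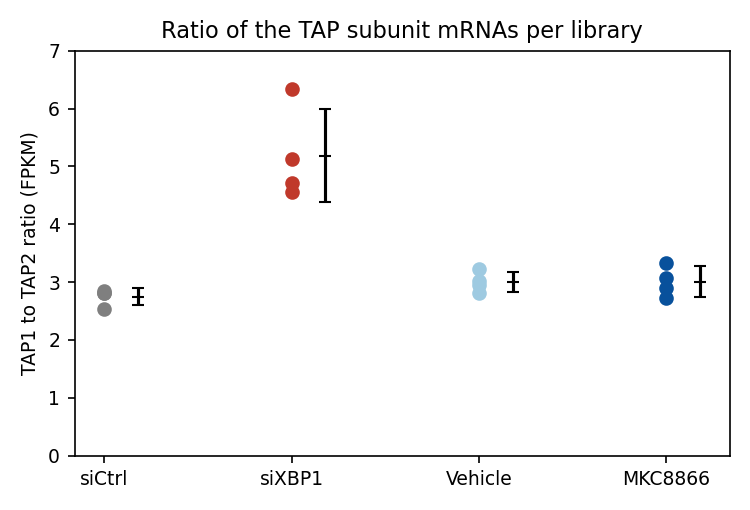
Ratio of TAP1 to TAP2 FPKM in each library, with a point per library and, beside it, the mean with the SD over the 4 libraries of the group. The siXBP1 libraries have a mean of 5.19 ± 0.803 and lie above all others, whose group means are 2.75 (siCtrl), 3.00 (Vehicle) and 3.01 (MKC8866).

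Both ER aminopeptidases fell. ERAP1, which trims most peptide precursors to the length that class I molecules hold, had 46.9, 44.4, 45.4 and 45.9 CPM in siCtrl and 36.6, 34.7, 35.8 and 32.3 CPM in siXBP1 libraries. The groups did not overlap, and the log2 fold change was -0.39 (standard error 0.05, adjusted p = 1.88e-06, edgeR). ERAP2, its relative with another sequence preference, had 7.64, 7.52, 6.58 and 7.55 CPM against 5.22, 5.77, 5.14 and 4.88 CPM. Here too every siXBP1 library was below every siCtrl library, from 151 to 180 counts against 206 to 257, and the log2 fold change was -0.48 (standard error 0.09, adjusted p = 0.000304, edgeR). The ratio of ERAP1 to ERAP2 FPKM, 5.85 ± 0.410 in siCtrl and 6.22 ± 0.431 in siXBP1 cells (SD, n = 4), differed by less than the sum of these spreads.

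The light chain and 1 of the 3 heavy chains also fell. HLA-E, whose product presents signal peptides of other class I molecules to natural killer cells, had 20.5, 20.1, 21.6 and 21.4 CPM in siCtrl and 15.8, 17.3, 17.99 and 17.5 CPM in siXBP1 libraries. The groups were separate, and HLA-E fell by a log2 fold change of 0.28 (SE 0.06, adjusted p = 0.00092, edgeR). B2M had 338, 364, 343 and 399 CPM against 283, 327, 296 and 327 CPM, again without overlap but with a spread of 7.64% and 7.33% (coefficient of variation) in the groups. Its log2 fold change was -0.23 (standard error 0.05, adjusted p = 0.00202, edgeR). HLA-C, the heavy chain with the highest level, had 151, 162, 157 and 171 CPM against 153, 153, 152 and 155 CPM, a log2 fold change of -0.06 (95% interval -0.15 to 0.03, adjusted p = 0.301). HLA-B had 21.6, 19.8, 23.2 and 20.7 CPM against 22.5, 22.4, 23.6 and 21.2 CPM, a log2 fold change of 0.07 (95% interval -0.06 to 0.20, adjusted p = 0.409). For both, the siXBP1 libraries lay within or across the range of the controls. TAPBP, the gene of tapasin, had 150, 181, 163 and 159 CPM against 178, 168, 150 and 183 CPM, with a log2 fold change of 0.06 (95% interval -0.06 to 0.18, adjusted p = 0.472). The intervals of HLA-B, HLA-C and TAPBP leave out a fall of the size seen for HLA-E or ERAP1.

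The siXBP1 and siCtrl libraries did not overlap for the same 5 of 9 genes, all lower, while 17.5% of all genes tested had every siXBP1 library below every siCtrl library. No alternative setting and no left-out library changed any of these calls. Luminal markers moved in the same comparison, with KLK3 (log2 fold change -0.86), KLK2 (-0.78) and TMPRSS2 (-0.89) lower, while FOLH1 (-0.01) did not pass the test. With MKC8866, KLK3 rose (0.46, adjusted p = 2.75e-08, edgeR), and KLK2, TMPRSS2 and FOLH1 did not pass the test. In siCtrl against Vehicle cells, KLK2 (0.14, adjusted p = 0.0453, edgeR) and TMPRSS2 (0.12, adjusted p = 0.0385) were higher. FOLH1 was lower there (-0.15, adjusted p = 0.00633, edgeR), and KLK3 did not pass the test. Their part in the class I values was not tested.

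**Figure D3:**
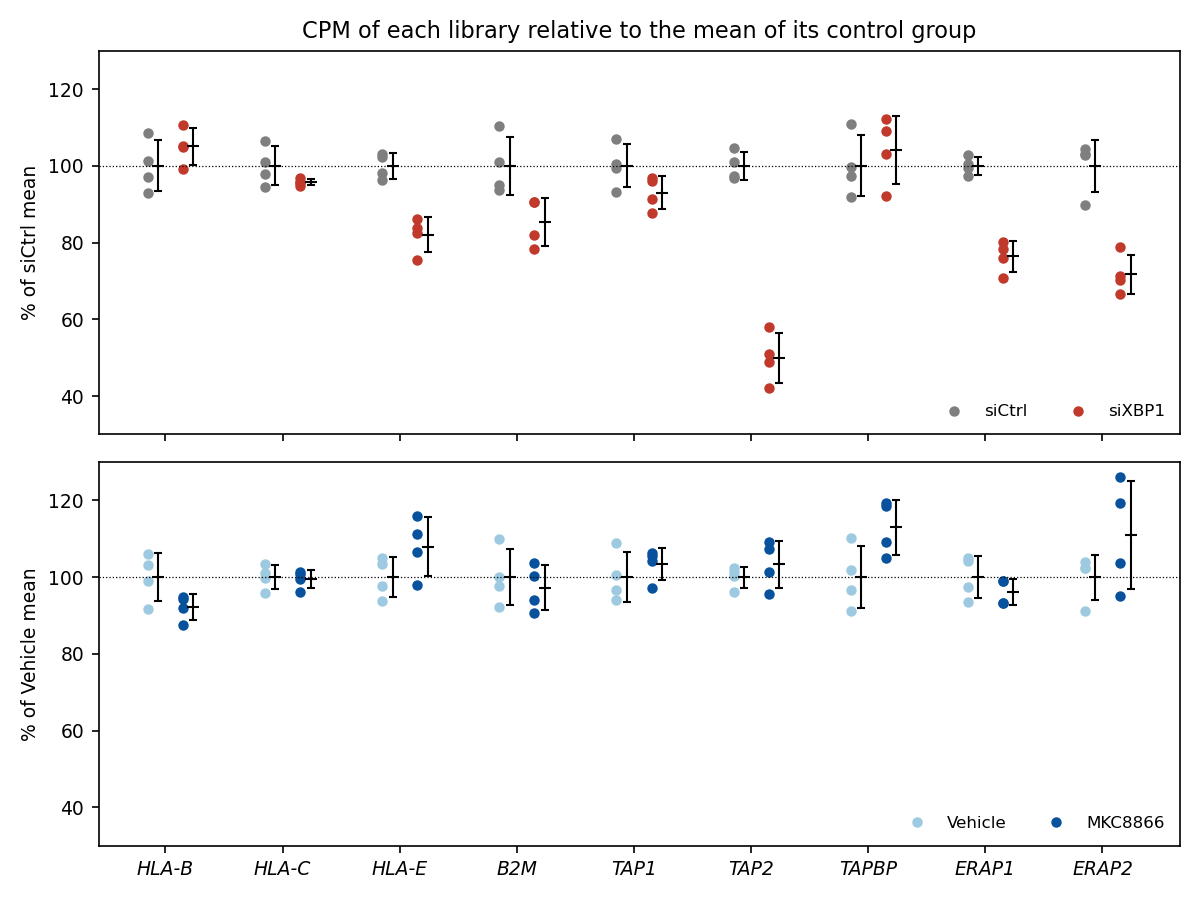
CPM of each library as a percentage of the mean of its own control group, for the knockdown experiment (upper panel, siXBP1 and siCtrl) and the inhibitor experiment (lower panel, MKC8866 and Vehicle), with the mean and SD of each group beside the points. In the upper panel TAP2 lies between 42.0% and 57.9% and ERAP1 between 70.8% and 80.2% of the control mean, and in the lower panel the groups overlap for all 9 genes.

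The second comparison asked the same of MKC8866 and Vehicle cells. In the fit that ignores replicate numbers, none of the 9 genes passed the test in either direction. That fit called 3.11% of the 21045 genes tested lower and 1.36% higher. With the replicate number as a block, 1 of the 9 (TAPBP) was higher, beside 7.05% of all genes lower and 6% higher. The MKC8866 and Vehicle libraries overlapped for all 9, where 9.17% of all genes had groups that did not overlap in one direction or the other. At an unadjusted p under 0.05, 1 of the 9 (TAPBP) was called, beside 15.2% of all genes tested. The median log2 fold change of the 9 was 0.05, and that of all genes tested was 0.00.

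TAP2 had 17.6, 16.7, 17.8 and 17.4 CPM in Vehicle and 18.96, 18.7, 16.6 and 17.6 CPM in MKC8866 libraries. The log2 fold change was 0.05 (95% interval -0.08 to 0.17, adjusted p = 0.816, edgeR), an interval that leaves out any fall near that seen after the knockdown. ERAP1 was at 36.2, 40.4, 40.7 and 37.8 CPM against 36.2, 38.4, 36.2 and 38.4 CPM (log2 fold change -0.06, 95% interval -0.17 to 0.05). ERAP2 was at 6.94, 6.10, 6.84 and 6.84 CPM against 8.42, 6.93, 6.36 and 7.96 CPM, with the widest interval of the 9 genes (-0.05 to 0.35 around 0.15). HLA-E was at 19.2, 20.0, 21.2 and 21.5 CPM against 23.7, 20.1, 22.8 and 21.8 CPM (log2 fold change 0.11, 95% interval -0.03 to 0.24), and B2M at 343, 386, 324 and 352 CPM against 319, 365, 331 and 352 CPM (-0.04, 95% interval -0.15 to 0.06). The groups of these 5 genes, the ones that fell after the knockdown, were thus interleaved in the inhibitor experiment.

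TAPBP was the class I gene nearest to the threshold. It had 134, 126, 140 and 152 CPM in Vehicle and 151, 145, 163 and 165 CPM in MKC8866 libraries, a log2 fold change of 0.17 (standard error 0.05, 95% interval 0.07 to 0.28, adjusted p = 0.0612, edgeR). Libraries with the same number deviated together in this experiment, least clearly for number 3. The correlation of deviations from the group means was 0.102 for number 3, below the 0.159 and 0.136 between numbers 1 and 3. Each MKC8866 library was above the Vehicle library of its number. Fitted with that number as a block, TAPBP rose by 0.17 with an adjusted p of 2.72e-06, in a fit that called 7.05% of all genes lower and 6% higher. It was also called higher with DESeq2 (0.17, adjusted p = 0.049), without the filter on low counts (0.18, adjusted p = 0.00511), without Vehicle replicate 4 (0.22, adjusted p = 0.0179) and without MKC8866 replicate 2 (0.20, adjusted p = 0.0133). Over all 15 alternatives the log2 fold change lay between 0.13 and 0.22 and the adjusted p between 2.72e-06 and 0.242. HLA-B, with 24.5, 23.5, 25.3 and 21.8 CPM against 21.9, 22.6, 22.5 and 20.8 CPM, had a log2 fold change of -0.12 (95% interval -0.24 to 0.01, adjusted p = 0.363). The log2 fold changes of HLA-C (-0.01, 95% interval -0.09 to 0.07) and TAP1 (0.05, 95% interval -0.07 to 0.16) did not pass the test either.

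The difference between the responses was tested itself, as an interaction over all 16 libraries. Of the 9 genes, 4 responded lower to the knockdown than to MKC8866 (TAP2, ERAP2, HLA-E and ERAP1) and none higher, beside 12.7% lower and 10.6% higher among all 20357 genes. The difference of the log2 fold changes was -1.04 for TAP2 (standard error 0.10, adjusted p = 2.57e-09, edgeR), -0.63 for ERAP2 (standard error 0.13, adjusted p = 0.000645), -0.39 for HLA-E (standard error 0.09, adjusted p = 0.0012) and -0.33 for ERAP1 (standard error 0.07, adjusted p = 0.000778). B2M, which fell after the knockdown, had a difference of -0.18 (95% interval -0.35 to -0.01, adjusted p = 0.114), so its responses were not shown to differ. When the block was fitted, the difference of B2M passed the test (-0.18, adjusted p = 0.00425), and so did that of HLA-B in the other direction (0.19, adjusted p = 0.046 against 0.102 without the block). The responses of HLA-C (-0.05, adjusted p = 0.6), TAP1 (-0.15, adjusted p = 0.189) and TAPBP (-0.11, adjusted p = 0.408) did not pass in either fit. The experiments differ in transfection, time of treatment and controls as well as in the kind of inhibition, and these cannot be told apart.

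The control groups of the experiments were compared to show how far the class I genes differed between cells that had received neither XBP1 siRNA nor MKC8866. Total XBP1 mRNA itself was lower in siCtrl than in Vehicle cells (log2 fold change -0.39, adjusted p = 1.98e-06, edgeR), and its groups did not overlap. Of the 9 genes, 2 were higher in siCtrl than in Vehicle cells, TAPBP by a log2 fold change of 0.24 (adjusted p = 0.00365, edgeR) and ERAP1 by 0.23 (adjusted p = 0.00215), and none was lower, beside 7.66% higher and 6.34% lower among the 21092 genes tested. The siCtrl libraries lay above all Vehicle libraries for ERAP1 and TAP2, where 9.83% of all genes did so. TAP2 itself missed the threshold (0.17, 95% interval 0.05 to 0.30, adjusted p = 0.0628). For ERAP1 the siXBP1 level of 34.9 ± 1.85 CPM stood nearer to the Vehicle level of 38.78 ± 2.13 than to the siCtrl level of 45.7 ± 1.04, and siXBP1 and Vehicle libraries overlapped. In TAP2, ERAP2 and HLA-E every siXBP1 library was also below every Vehicle library. The plot of fold changes sets these differences beside those of the treatments.

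**Figure D4:**
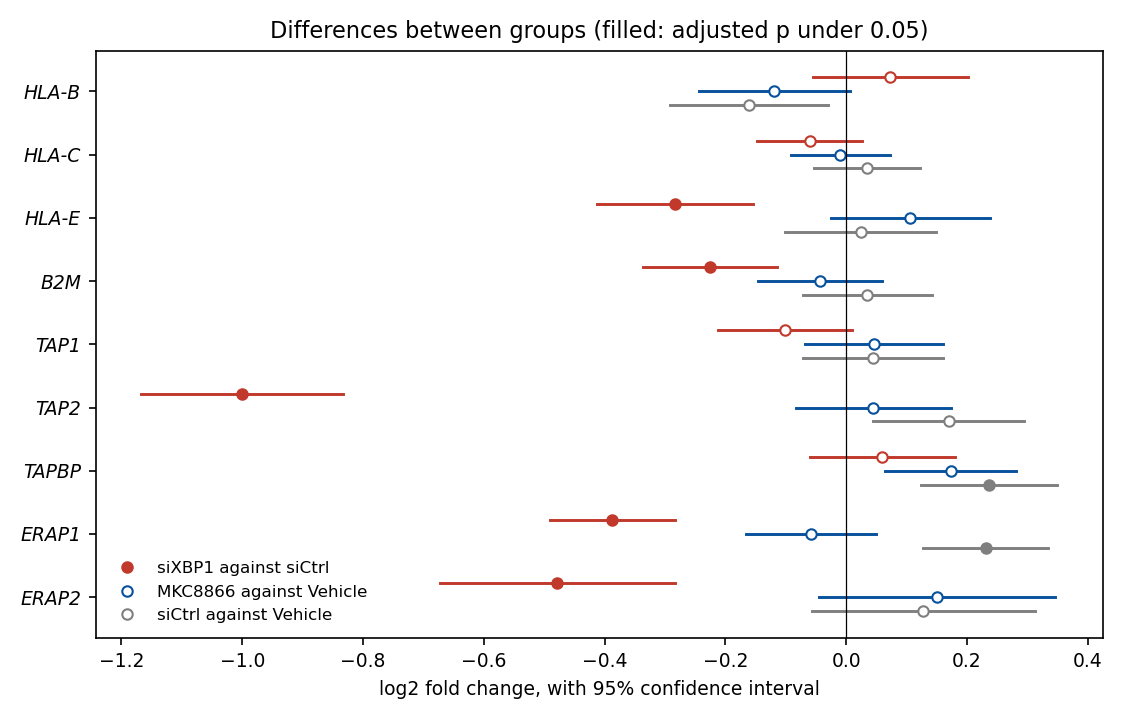
Log2 fold change of each class I gene with its 95% interval, for siXBP1 against siCtrl (red), MKC8866 against Vehicle (blue) and siCtrl against Vehicle (grey). Points are filled where the adjusted p was under 0.05 without the replicate block. TAP2 after the knockdown (-1.0) stands apart on the left, no blue point is filled, and ERAP1 and TAPBP are filled in grey on the right (0.23 and 0.24).

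The rest of the pathway was described from lists of named genes, as counts without a test of the list. The counts after the knockdown are to be read beside the 18.2% of all genes called lower and the 16.5% called higher, and those with MKC8866 beside 3.11% and 1.36%, or 7.05% and 6% with the replicate block. In the peptide loading chaperones and export factors, 1 of 6 fell after the knockdown, a share near that of all genes. It was UGGT1, the glucosyltransferase that checks the folding of glycoproteins (log2 fold change -0.23, adjusted p = 0.000333, edgeR). Calreticulin (CALR, -0.01), calnexin (CANX, -0.04) and the disulfide isomerase PDIA3 (-0.05), which hold new heavy chains, did not pass the test there. With MKC8866, PDIA3 was the gene of 6 that fell (-0.20, adjusted p = 0.00184, edgeR), from 801 to 880 CPM in Vehicle to 712 to 787 CPM in MKC8866 libraries. With the replicate block 4 of 6 fell, PDIA3 and also BCAP31 (-0.11, adjusted p = 0.00411), CANX (-0.07, adjusted p = 0.0237) and UGGT1 (-0.08, adjusted p = 0.0429). Without the block, the responses of PDIA3 (interaction adjusted p = 0.0672) and UGGT1 (0.0875) were not shown to differ between the treatments.

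The immunoproteasome genes PSMB8 and PSMB9 neighbour TAP1 and TAP2 in the MHC, and PSMB9 shares its promoter region with TAP1. Of 5 genes of the immunoproteasome and its activator, PSME2, a subunit of the proteasome activator PA28, fell after the knockdown (log2 fold change -0.20, adjusted p = 0.00202, edgeR) and PSMB8, a catalytic subunit, rose (0.74, adjusted p = 0.0209). PSMB8 rested on few counts, with 29, 34, 18 and 20 in siCtrl and 34, 30, 51 and 43 in siXBP1 libraries, and these groups overlapped. PSMB9, at 38, 41, 49 and 55 against 22, 44, 36 and 39 counts, had a log2 fold change of -0.28 with a 95% interval of -0.71 to 0.14. With MKC8866 none of the 5 passed the test without the block. PSME2, at 78.1, 77.0, 75.4 and 74.0 CPM in Vehicle and 71.6, 71.1, 66.9 and 66.3 CPM in MKC8866 libraries, had groups that did not overlap, and it fell with the replicate block (-0.15, adjusted p = 0.00077 against 0.0684 without it). The interaction passed for PSMB8 alone of the 5 (1.04, adjusted p = 0.0187). TAP2 and PSMB8, which lie close together, had log2 fold changes of opposite sign.

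Among 7 peptidases that cut peptides outside the ER, 4 fell and 1 rose after the knockdown, where 18.2% and 16.5% of all genes did. The largest fall was that of LNPEP, an endosomal aminopeptidase related to ERAP1 and ERAP2, which had 91.0, 102, 94.4 and 103 CPM in siCtrl and 55.5, 59.3, 55.9 and 60.2 CPM in siXBP1 libraries (log2 fold change -0.76, adjusted p = 3.96e-11, edgeR). THOP1 (-0.25), LAP3 (-0.17) and NRDC (-0.10) fell less, and NPEPPS, the puromycin-sensitive aminopeptidase of the cytosol, rose by 0.17 (adjusted p = 0.00167). LNPEP was the gene of the 7 that fell with MKC8866 as well (-0.29, adjusted p = 0.000699, edgeR), to a smaller degree than after the knockdown (interaction -0.46, adjusted p = 2.93e-05).

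Of 12 regulators of class I transcription, 3 fell and 2 rose after the knockdown, with a list median of 0.01, and these shares lie near those of all genes. The largest fold changes were those of RFXAP (-0.22, adjusted p = 0.0462, edgeR) and IRF1 (-0.20, adjusted p = 0.0053) downward and of NFYA (0.16, adjusted p = 0.00978) and NFYC (0.14, adjusted p = 0.0217) upward, and RFX5 fell by 0.18 (adjusted p = 0.00117). NLRC5, the class I transactivator, was at 10.7 ± 0.773 CPM in siCtrl and 10.4 ± 0.718 CPM in siXBP1 cells (SD, n = 4) and did not pass the test. With MKC8866, IRF1, the interferon-induced activator, rose (0.24, adjusted p = 0.00498, edgeR), from 66.5 to 72.1 CPM in Vehicle to 76.8 to 91.6 CPM in MKC8866 libraries. With the replicate block NFKB1 also rose (0.07, adjusted p = 0.0499). IRF1's responses to the treatments differed in the interaction test (-0.44, adjusted p = 8.8e-05), as did those of RFX5 (-0.22, adjusted p = 0.0073).

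Of 13 other class I-like heavy chains, 10 passed the filter, and ULBP2, a ligand of the activating receptor NKG2D, fell in both experiments (log2 fold change -0.34 and adjusted p = 0.00151 after the knockdown, -0.39 and 0.00489 with MKC8866, edgeR). HLA-G, MICB and CD1D were too low to test. Class II genes were sparse, with a sum over 10 genes of 14.1 to 21.02 CPM in any library. Of 7 tested after the knockdown, 2 fell, HLA-DMA (-0.72, adjusted p = 9.18e-06, edgeR) and HLA-DMB (-0.37, adjusted p = 0.0323), which load peptides onto class II molecules. The groups of HLA-DMB overlapped. Of 5 tested with MKC8866, 1 fell, the class II transactivator CIITA (-0.83, adjusted p = 0.039, edgeR). CIITA rested on few counts, 33, 47, 31 and 48 in Vehicle and 15, 30, 21 and 24 in MKC8866 libraries.

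**Figure D5:**
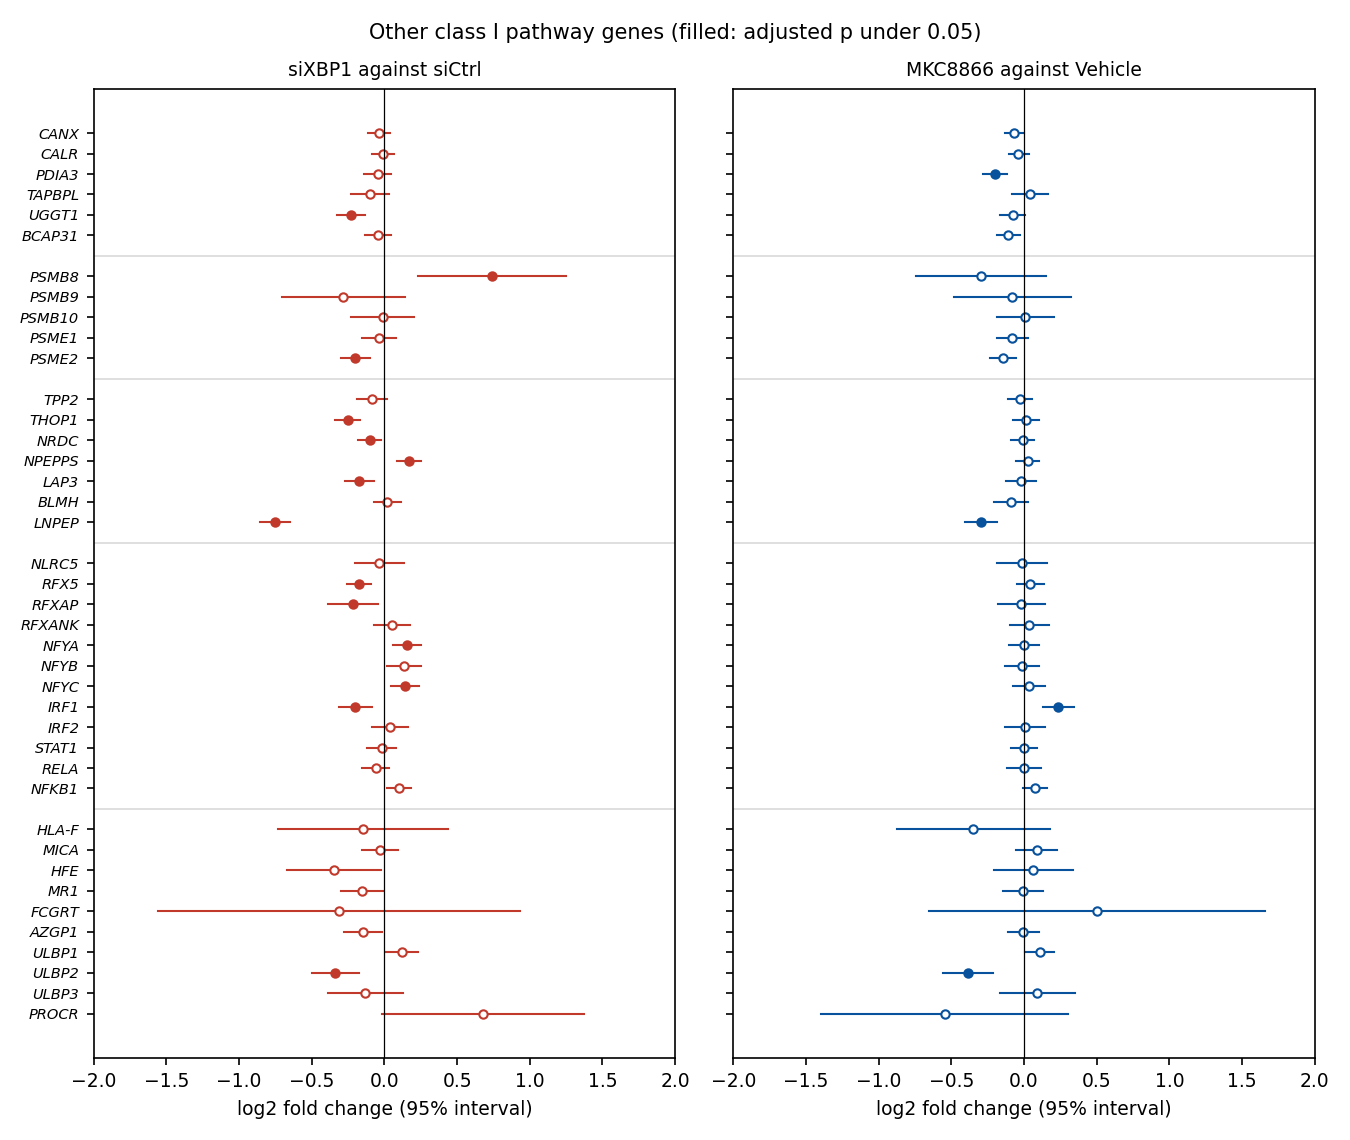
Log2 fold change with its 95% interval of the other class I pathway genes after XBP1 knockdown (left) and with MKC8866 (right), grouped from top to bottom as loading chaperones, immunoproteasome, peptidases, transcription regulators and class I-like heavy chains, with filled points where the adjusted p was under 0.05 without the replicate block. LNPEP is filled on the left of 0 in both panels (-0.76 and -0.29), as is ULBP2 (-0.34 and -0.39), and IRF1 is filled on opposite sides.

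Over the 16 libraries the profiles of the class I genes were set beside those of 15037 genes of at least 1 CPM, by the root mean square difference of log2 CPM scaled to mean 0 and SD 1 (0 is an identical profile). TAP2 had the closest neighbours, EXD2 (0.141) and NKIRAS1 (0.170). ERAP1 was followed most closely by PREPL (0.329) and GPNMB (0.349), HLA-E by RNF223 (0.315) and SSRP1 (0.350), B2M by PTGES3 (0.371) and MRPL57 (0.372), TAPBP by TAOK2 (0.368) and AMOT (0.391), and ERAP2 by TUFT1 (0.383) and NAIPP2 (0.400). HLA-B (BLVRA, 0.562), HLA-C (TUBA1C, 0.549) and TAP1 (RAET1L, 0.463) had no neighbour as close, and none of these nearest genes was another of the 9. The libraries of a group share their treatment, so likeness of this kind is a description.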

How the data were processed

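The values are counts of fragments per gene as the authors deposited them, without normalization. According to the study's methods and the submitters' processing notes, paired-end reads of stranded libraries were aligned to hg38 with STAR (2.5.2a) and summarised with featureCounts (1.5.0) on Ensembl 85, and per the file header strand was ignored and multimapping fragments were left out. Treated and control libraries of each experiment were compared in edgeR 4.0.16 (R 4.3.3; TMM, quasi-likelihood F test, two-sided, Benjamini-Hochberg over all genes tested), after the study's filter (over 5 counts in 1 or more libraries of both groups). DESeq2 1.42.0, which the authors used, was an alternative, beside its size factors in edgeR, a block for the replicate number, no filter, a minimum of 10 counts in all libraries, 1 fit of all 16 libraries, a threshold of 0.01 and leaving out single libraries. The scripts were tested on simulated data.

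The genes, lists and tests were chosen with earlier results of these data known. The genes named are the 9, XBP1, called genes of the lists (with the 2 largest fold changes in each direction), the 2 nearest profiles of each gene and overlapping neighbours. Other list genes named beside these were chosen after their values were seen. Same-numbered libraries deviated together in the inhibitor experiment (correlations of deviations from the group means 0.10 to 0.38 across 15038 genes, each over 0.1), so the numbers were taken to pair those libraries, and not in the knockdown experiment (0.00 to 0.07). Differently numbered libraries of the inhibitor experiment had -0.252 to 0.159, the highest between numbers 1 and 3. Same-numbered siCtrl and Vehicle libraries, from separate experiments, had -0.16 to 0.128. The pairing is therefore an assumption, weakest for number 3. Depth was 28713607 to 34509488 fragments, with a biological coefficient of variation of 5.40% and 4.97% in the experiments. Of the luminal marker list, some genes and the sum over the list are not reported here.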

Additional observations from a re-analysis of the deposited data

Results flagged for a closer look

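In ERAP2, 1 library of a group of 4 stood apart from the others in each control group. Its siCtrl replicate 3 was at 6.58 CPM while the others were at 7.52 to 7.64, a gap of 0.890 of the group's range. In Vehicle, replicate 2 was at 6.10 CPM while the others were at 6.84 to 6.94, a gap of 0.873 of the range. Chance alone sets apart about 1 in 20 groups by this measure. It was applied to each of the 4 groups for the 9 genes and XBP1, so some groups set apart are expected by chance. The log2 fold change of ERAP2 after the knockdown kept its direction and its call when the siCtrl library was left out.

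Knockdown and inhibitor responses differed, by the interaction test in edgeR, for 4 class I genes, with differences of log2 fold changes of -0.387 for HLA-E, -1.043 for TAP2, -0.326 for ERAP1 and -0.626 for ERAP2. Among the other pathway genes the difference was 1.041 for PSMB8 (adjusted p = 0.0187), -0.264 for THOP1, 0.146 for NPEPPS, -0.458 for LNPEP, -0.217 for RFX5, -0.437 for IRF1 and -0.633 for HLA-DMA. The experiments have separate controls and times of treatment, which cannot be told apart from the kind of inhibition.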

How the results depend on the processing

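All class I calls of the knockdown comparison held under the 7 alternatives and without each library in turn. The count of class I genes higher with MKC8866 was 0, and 1 (TAPBP) with DESeq2, without the filter on low counts and with the replicate block, and 0 to 1 when single libraries were left out. In the interaction the count of genes higher was 0, and 1 (HLA-B) with the replicate block and 0 to 1 without single libraries (siCtrl replicate 3 or Vehicle replicate 4). B2M was called lower in the interaction with the replicate block (-0.18, adjusted p = 0.00425), without the filter (-0.18, adjusted p = 0.0288) and without Vehicle replicate 2 (-0.23, adjusted p = 0.0327). The block changed no other call among the 9 genes. In the inhibitor comparison of the other class I lists the block, applied to them after seeing the data, added the calls given with them and lost none. Signs turned, for values near 0 that were never called, when single libraries were left out, for B2M (-0.084 to 0.004, inhibitor, and -0.017 to 0.085, controls), HLA-C (-0.031 to 0.003, inhibitor) and HLA-E (-0.004 to 0.051, controls). Over all genes the block raised the inhibitor calls from 654 lower and 287 higher to 1484 and 1262, and without MKC8866 replicate 2 there were 484 higher. The causes were not tested. At this depth, genes such as PSMB8 and PSMB9, with under 60 counts in a library, are limited by counting error.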

Other observations

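In the FPKM ratios of gene pairs, which were chosen after the values had been seen and were not tested, B2M to HLA-C was 0.902 to 0.963 in siCtrl libraries and 0.761 to 0.879 in siXBP1 libraries, and 0.8287 to 1.07 in Vehicle and 0.847 to 1.00 in MKC8866 libraries. The height of such a ratio depends on the exonic lengths used, which are the same in every library. HLA-C to HLA-E was 8.61 to 9.54 in siCtrl and 10.0 to 11.5 in siXBP1 libraries, and 8.56 to 9.75 in Vehicle and 7.76 to 8.85 in MKC8866 libraries. TAP1 to PSMB9, the pair with a shared promoter region, was 14.96 to 21.4 in siCtrl and 17.8 to 29.9 in siXBP1 libraries, with 22 to 55 PSMB9 counts in a library behind it.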
